A study of Homo sapiens with 6 samples.

Results

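The nucleic acid sensors of the innate immune system were followed in HT29, an established cell line that comes from a human colorectal adenocarcinoma. They comprised 10 genes picked by name, namely RIGI, IFIH1, DHX58, TLR3, MAVS, CGAS, STING1, IFI16, AIM2 and ZBP1, out of 19775 genes measured. These genes were chosen with earlier results of these data known, so their shares beside those of all genes are descriptive. Each was read through the probe sets that the platform annotation assigns to that gene symbol alone, which gave 25 probe sets of 54613. Of the genes, 8 had several probe sets, and DHX58 and AIM2 had 1 each. A total of 300000 cells were plated, and from the next day 3 cultures were held for 24 h with a polyphenolic cocoa extract (500 µg, with no volume stated) and 3 with saline. The saline cultures are called untreated controls in the sample names. All cultures were grown in F12 medium with 7% fetal bovine serum, carried no other agent or genetic change named in the labels, and gave 1 array each. HT29 is a single line, so the arrays do not sample different donors, and the labels do not say on which days the cultures were grown. The p-values therefore measure the spread between these cultures only.

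Cells detect foreign or misplaced nucleic acids with a small set of receptors. In the cytosol, RIG-I and MDA5, the products of RIGI and IFIH1, bind viral RNA and signal through MAVS on mitochondria, while TLR3 reads RNA with paired strands in endosomes. DNA in the cytosol activates cGAS, whose product cGAMP switches on STING, and IFI16 and AIM2 bind DNA through their HIN domains. The signalling arms of MAVS, STING and TLR3 meet at the kinase TBK1 and end in interferons and other cytokines. Most of the receptors are themselves known as interferon-stimulated genes, in intestinal epithelium as elsewhere.

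The deposited values are log2 expression set to a median of 0 over the 6 arrays for each probe set. They show how far an array lies above or below the middle of the arrays and hold no expression level, so the sensors cannot be ranked by abundance. The presence of colon epithelial markers cannot be read from them either. In the cocoa arrays 1, 2 and 3 the control probe sets for 18S ribosomal RNA read −0.51, 3.31 and 1.40, against −1.12, 0.51 and −0.53 in the control arrays. The 5′ minus 3′ difference of the actin and GAPDH control probe sets was 0.032, −0.26 and −0.052 in the cocoa arrays and 0.0090 to 0.033 in the controls, so that cocoa arrays 2 and 3 stood apart in both measures. Whether these signals contribute to the sensor differences was not tested beyond the fits that take them as a covariate. Of 8 colon epithelial marker genes CDH17 rose (log2 difference 0.56, adjusted p = 0.0126 in limma, and 0.0555 without control array 2), and the mean of the 8 was 0.033 to 0.16 in the cocoa arrays and −0.072 to −0.031 in the controls. Of 5 measured leukocyte markers CD14, which epithelial cells can also express, rose (0.75, adjusted p = 0.00321), and their mean was −0.028 to 0.14 in the cocoa arrays and −0.17 to −0.065 in the controls. Of 4 fibroblast markers 0 passed in limma, also at an unadjusted p below 0.05. PTPRC, the pan-leukocyte marker, had a log2 difference of 0.010 (adjusted p = 0.953 in limma), and no measured leukocyte marker other than CD14 passed. The cultures are described as the single line HT29, and a part of any other cells in the sensor differences was not tested.

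With cocoa extract, 7 of the 10 sensor genes rose and none fell. The 4 RNA sensors RIGI, IFIH1, DHX58 and TLR3 rose between 1.68-fold and 3.01-fold, both adaptors MAVS and STING1 rose, and of the 3 DNA sensors only IFI16 passed the test (3.36-fold), while CGAS, AIM2 and the Z-form sensor ZBP1 did not pass. The threshold for a change was a p of 0.05 in limma after Benjamini-Hochberg adjustment over all 19775 genes, and by that rule 13.5% of all genes changed, 7.36% higher and 6.12% lower. Of the 10 sensor genes, 6 passed and rose at least 1.5-fold, against 1.85% of all genes. The median log2 difference (cocoa minus control) over the 10 sensors was 0.75, against −0.012 over all genes. The arrays of the groups did not overlap in 8 of the 10 sensors, against 32.5% of all genes (15.4% with the cocoa arrays on top, as in these 8). In bulk cultures, more RNA per cell and more cells that carry the RNA cannot be told apart.

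**Figure D1:**
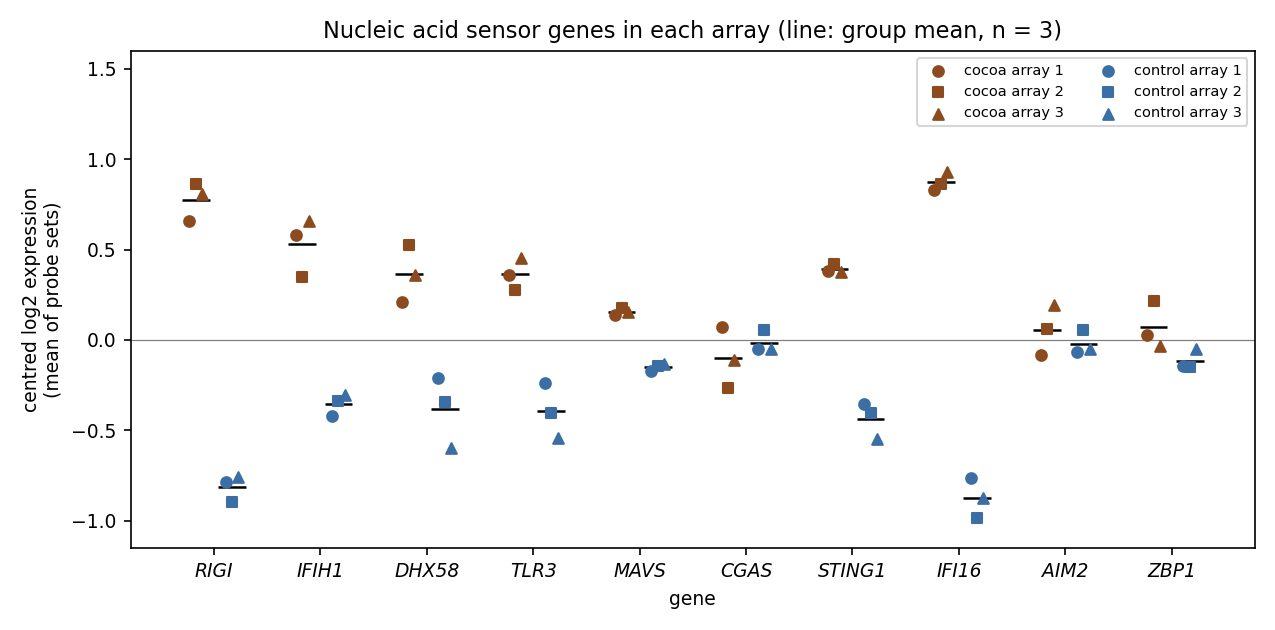
Centred log2 expression (vertical axis, mean of a gene's probe sets) of the 10 sensor genes in each array, with cocoa arrays left and control arrays right of each tick and a line at each group mean. In the 7 genes that rose, the cocoa arrays lie at 0.14 or above and the control arrays at −0.13 or below, while the groups mix in CGAS and AIM2.

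RIGI encodes RIG-I, a helicase that recognises RNA carrying a free triphosphate end. Its centred log2 value was 0.66, 0.86 and 0.81 in the cocoa arrays, against −0.78, −0.90 and −0.76 in the control arrays. The groups lay far apart, with each array of a group close to the others. Cocoa minus control came, on the log2 scale, to 1.59 (SE 0.076, 95% confidence interval 1.42 to 1.76, adjusted p = 7.72e-06 in limma, n = 3 arrays per group), a rise of 3.01-fold. RIGI was number 33 of all 19775 genes when these were ordered from the largest increase. All 3 of its probe sets rose, 222793_at the most, by 1.65 on the log2 scale (95% confidence interval 1.47 to 1.83).

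IFIH1 encodes MDA5, a relative of RIG-I that binds long RNA with paired strands. Its values were 0.58, 0.35 and 0.66 in the cocoa arrays, against −0.42, −0.34 and −0.30 in the control arrays. Cocoa array 2 was the lowest of its group, and the groups did not overlap. On the log2 scale the groups differed by 0.88 (SE 0.088, adjusted p = 0.000408 in limma), or 1.84-fold. Its 3 probe sets rose by unequal amounts or did not pass. 219209_at had a log2 difference of 1.48 (95% confidence interval 1.21 to 1.76) and 216020_at one of 0.47 (0.25 to 0.70). The adjusted p of 216020_at was 0.0249 in limma, and between 0.0517 and 0.0819 in the fits without cocoa array 2 or 3 or any 1 control array. The remaining probe set, 1555464_at, read 1.00, −0.057 and 0.88 in the cocoa arrays, against −0.24, −0.065 and 0.057 in the control arrays. Cocoa array 2 thus lay among the controls there, and the probe set did not pass (log2 difference 0.69, adjusted p = 0.137 in limma over all probe sets, and 0.00351 without cocoa array 2, where the difference was 1.03).

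DHX58 encodes LGP2, the third helicase of this family, which lacks the signalling domains of the other members and modulates them. It had 0.21, 0.53 and 0.36 in the cocoa arrays, against −0.21, −0.34 and −0.60 in the control arrays. The spread within each group was wider than for RIGI, without overlap. The log2 difference was 0.75 (SE 0.11, adjusted p = 0.00308 in limma), or 1.68-fold, from 1 probe set. In the fit that kept cocoa array 1 alone against the controls, which assumes that a lone array varies like the controls, the difference was 0.59 and the adjusted p 0.0753.

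TLR3, the endosomal receptor, had 0.36, 0.28 and 0.46 in the cocoa arrays, against −0.24, −0.40 and −0.54 in the control arrays. All cocoa arrays lay above all control arrays. Cocoa minus control came, on the log2 scale, to 0.76 (SE 0.090, adjusted p = 0.000932 in limma), or 1.69-fold. This gene value averages probe sets that behaved differently. 239587_at rose by 1.39 and 206271_at by 0.90 on the log2 scale, and 242667_at had a difference of −0.014 (95% confidence interval −0.28 to 0.25, adjusted p = 0.966 in limma). The fold of the TLR3 gene value therefore lies below that of the probe sets that rose.

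MAVS, the mitochondrial adaptor of RIG-I and MDA5, moved least among the genes that rose. Its values were 0.14, 0.18 and 0.16 in the cocoa arrays, against −0.17, −0.14 and −0.13 in the control arrays. Each group was tight, and the groups did not overlap. On the log2 scale the groups differed by 0.31 (SE 0.060, adjusted p = 0.0099 in limma), or 1.24-fold. Of its 4 probe sets 229741_at rose (0.50, adjusted p = 0.00542 in limma), and the other three had differences of 0.22 to 0.26 without passing. With the 18S signal as a covariate the adjusted p of MAVS was 0.0654, and with cocoa array 1 alone it was 0.109, at differences of 0.29 in both fits.

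Promoter sequences of some sensors are shown as a description. Interferon-stimulated response elements are sites through which interferon-activated factors can reach genes, and whether they act in these cultures was not tested. The RefSeq promoter table (GRCh38.p14, windows from 250 bases before to 50 after an annotated start) held 6 of the 10 genes. Each window was searched on both strands for GAAA, any 2 bases and again GAAA, the core of the interferon-stimulated response element, and for TTCNNNGAA, the gamma-activated site, which reads the same on both strands. The first was found in 3.57% and the second in 7.66% of all 35116 windows. The windows of IFIH1, TLR3 and AIM2 held the first motif, and that of TLR3 also held the second. The windows of RIGI, MAVS and IFI16 held neither of these letter strings. IFIH1 had 3 matches, GAAACAGAAA from −21 to −12 on the gene's strand and 2 on the opposite strand that overlap each other between −159 and −144. Below, 200 bases before and 10 from the start are printed on the gene's strand, with matches to either motif in capitals. IFIH1 and TLR3 rose and hold matches, RIGI, MAVS and IFI16 rose without a match, and AIM2 holds a match and did not pass the test. A match is a description of the letters and not evidence of a bound site. The windows lie at chr2:162318675-162318884 (minus strand) for IFIH1, chr4:186068956-186069165 (plus strand) for TLR3, chr9:32526187-32526396 (minus strand) for RIGI and chr1:159076757-159076966 (minus strand) for AIM2.
IFIH1: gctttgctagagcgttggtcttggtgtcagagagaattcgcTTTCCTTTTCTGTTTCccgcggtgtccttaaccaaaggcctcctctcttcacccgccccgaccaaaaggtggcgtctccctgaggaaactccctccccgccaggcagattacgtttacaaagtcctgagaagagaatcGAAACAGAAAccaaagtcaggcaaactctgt
TLR3: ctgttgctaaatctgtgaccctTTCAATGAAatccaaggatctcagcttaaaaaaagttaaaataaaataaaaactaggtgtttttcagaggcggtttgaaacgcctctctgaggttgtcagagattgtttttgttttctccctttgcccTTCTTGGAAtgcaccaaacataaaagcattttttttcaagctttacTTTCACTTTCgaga
RIGI: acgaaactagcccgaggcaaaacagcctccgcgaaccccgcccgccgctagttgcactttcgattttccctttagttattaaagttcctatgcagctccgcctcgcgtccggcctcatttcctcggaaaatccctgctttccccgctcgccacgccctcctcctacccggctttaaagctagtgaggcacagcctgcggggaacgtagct
AIM2: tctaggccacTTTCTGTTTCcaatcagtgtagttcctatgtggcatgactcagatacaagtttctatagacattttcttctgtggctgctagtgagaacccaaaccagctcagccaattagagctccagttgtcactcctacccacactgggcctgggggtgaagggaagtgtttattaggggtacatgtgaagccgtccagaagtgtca

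In the DNA branch, the adaptor rose and the enzyme before it did not pass. STING1 encodes STING, the membrane protein of the endoplasmic reticulum that binds cGAMP. It had 0.38, 0.42 and 0.38 in the cocoa arrays, against −0.36, −0.41 and −0.55 in the control arrays. The groups were separated and the cocoa arrays nearly equal. The log2 difference was 0.83 (SE 0.070, 95% confidence interval 0.67 to 0.99, adjusted p = 0.000155 in limma), or 1.78-fold, and both probe sets rose, by 0.89 and 0.77.

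CGAS encodes the DNA-binding enzyme that makes cGAMP. It had 0.069, −0.27 and −0.11 in the cocoa arrays, against −0.048, 0.054 and −0.052 in the control arrays, and the groups overlapped. Cocoa minus control came, on the log2 scale, to −0.087 (95% confidence interval −0.29 to 0.12, adjusted p = 0.611 in limma), an interval that leaves out increases of the size seen for STING1. The difference of STING1 minus CGAS was 0.31 to 0.69 within the cocoa arrays and −0.49 to −0.31 within the control arrays, a change of 0.92 (exact two-sided permutation test, p = 0.1, the smallest that 3 against 3 arrays can give). The 3 probe sets of CGAS pointed in different directions without passing. 1559051_s_at read 0.13, −0.69 and −0.50 in the cocoa arrays, against 0.22, 0.14 and −0.13 in the control arrays, so its low values were those of the cocoa arrays with high 18S signal. Its log2 difference was −0.43 (adjusted p = 0.241 in limma), and −0.67 (adjusted p = 0.0198) without cocoa array 1.

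IFI16, a nuclear and cytosolic DNA-binding protein of the PYHIN family, rose most among the sensors. Its values were 0.83, 0.86 and 0.93 in the cocoa arrays, against −0.77, −0.98 and −0.88 in the control arrays. The gap between the groups was many times the spread within them. On the log2 scale the groups differed by 1.75 (SE 0.074, 95% confidence interval 1.58 to 1.92, adjusted p = 4.18e-06 in limma), or 3.36-fold, number 21 of all genes from the largest increase. Its 3 probe sets rose by 1.65, 1.79 and 1.81 on the log2 scale. All of them carry suffixes (_s_at or _x_at) for probes that may match more than 1 transcript, and without such probe sets IFI16 was not measured.

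AIM2, which builds an inflammasome on cytosolic DNA, is a neighbour of IFI16 on chromosome 1 in the RefSeq gene table, on the opposite strand, and the annotated spans of the genes overlap at their ends. It had −0.082, 0.059 and 0.20 in the cocoa arrays, against −0.067, 0.052 and −0.052 in the control arrays, and the groups overlapped. The log2 difference was 0.080 (95% confidence interval −0.11 to 0.27, adjusted p = 0.611 in limma). The difference of IFI16 minus AIM2 was 0.73 to 0.91 within the cocoa arrays and −1.04 to −0.70 within the control arrays, a change of 1.67 (exact two-sided permutation test, p = 0.1, again the smallest possible). In all, 6 such pairs of sensors were compared, and each gave an exact p of 0.1 and an adjusted p of 0.1 in the permutation test. Every pair held a gene whose groups lay apart and the p could go no lower. The test therefore cannot decide whether the genes of a pair differ, and the values only give the size of the gap. The other PYHIN genes of this stretch of the chromosome, PYHIN1 and MNDA, had log2 differences of 0.051 (adjusted p = 0.757 in limma) and −0.17 (adjusted p = 0.241).

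ZBP1 recognises nucleic acids in the Z conformation and can start necroptosis. Its gene value was 0.028, 0.22 and −0.036 in the cocoa arrays, against −0.14, −0.15 and −0.051 in the control arrays. The groups just failed to overlap, and the log2 difference of 0.18 did not pass (95% confidence interval 0.0041 to 0.36, adjusted p = 0.174 in limma). That mean joins probe sets with differences of opposite sign. 242020_s_at read 0.31, 0.42 and 0.12 in the cocoa arrays, against −0.42, −0.28 and −0.12 in the control arrays, and rose by 0.56 (adjusted p = 0.018 in limma). Its adjusted p was 0.0543 without cocoa array 2, 0.0708 without control array 1 and 0.0809 without control array 2. 208087_s_at read −0.26, 0.013 and −0.19 in the cocoa arrays, against 0.13, −0.013 and 0.021 in the control arrays, and had a difference of −0.19 (adjusted p = 0.285). The sign of 208087_s_at is not established at this precision, and the gene value stayed positive in every alternative that measured it (0.094 to 0.24).

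**Figure D2:**
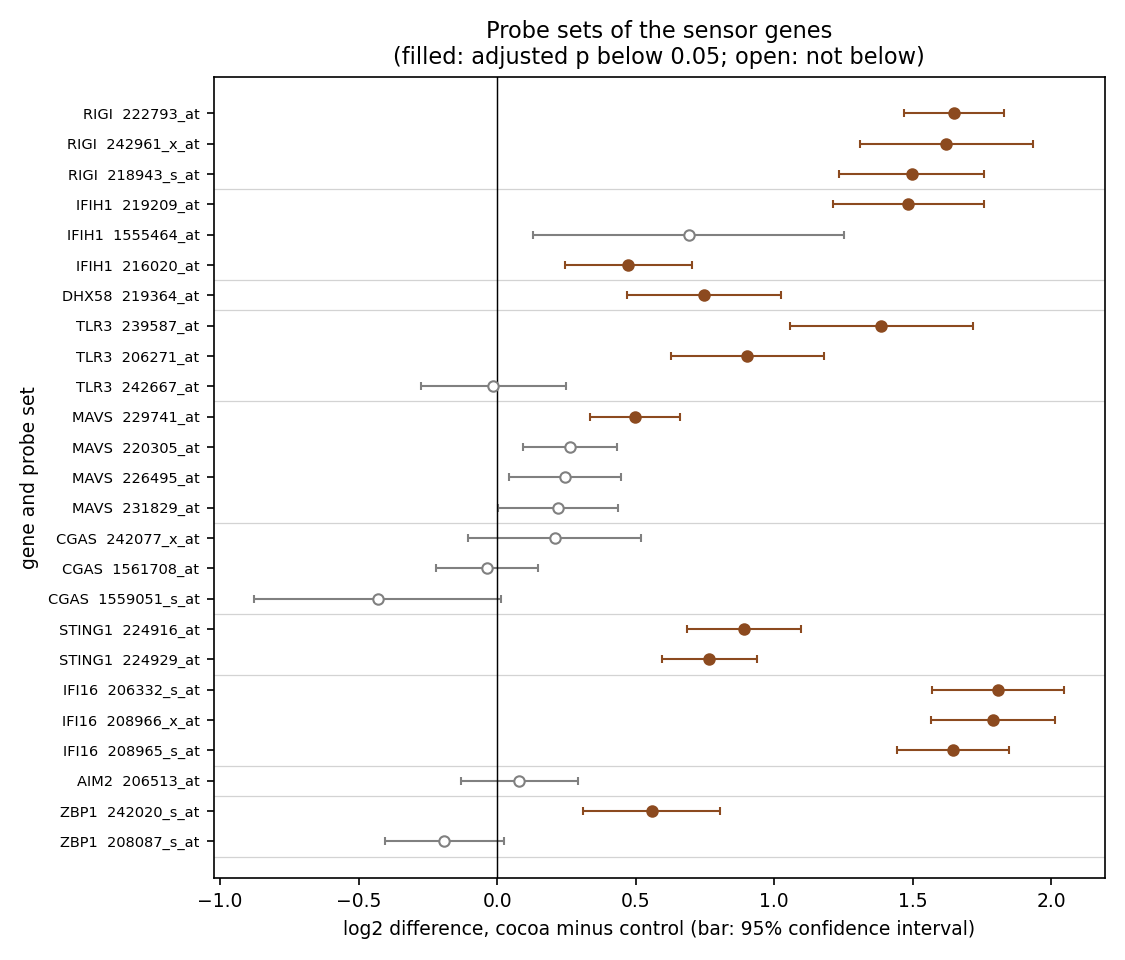
Log2 difference, cocoa minus control (horizontal axis), of the 25 probe sets of the sensor genes with 95% confidence intervals from limma, where filled points have an adjusted p below 0.05. The probe sets of RIGI, IFI16 and STING1 lie together within each gene, while TLR3, IFIH1 and ZBP1 each have probe sets far apart.

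Across probe sets, 15 of 25 rose and none fell at an adjusted p below 0.05 in limma, against 7.98% of all probe sets changed, 4.68% higher and 3.3% lower. Each probe set was also tested against the mean of its gene's other probe sets, with limma over all 31839 probe sets of genes that have several. Of the 23 probe sets of the sensors in that test 5 departed from the others, against 3.54% of all. They were 242667_at (−1.16, adjusted p = 0.00677) and 239587_at (0.94, adjusted p = 0.0172) of TLR3, 216020_at of IFIH1 (−0.61, adjusted p = 0.0332), and both of ZBP1 (0.75 apart, adjusted p = 0.0155). The number was 2 without control array 1, 1 without control array 2, and 0 with the 18S or the 5′ minus 3′ covariate, where the differences stayed of similar size. With the 18S covariate they were −1.07 for 242667_at, 0.84 for 239587_at, −0.78 for 216020_at and 0.78 between the probe sets of ZBP1, and with the 5′ minus 3′ covariate −1.09, 0.89, −0.73 and 0.79. 242667_at of TLR3 departed in each of the 6 fits without 1 array. The test was chosen after the probe sets had been seen to differ, so it sizes that observation and is no independent support for it. The entries of ZBP1 are the same comparison with its sign turned. Those of TLR3 are linked, since each probe set is part of the reference of the other. The count of 5 thus comes from TLR3, IFIH1 and ZBP1 only and does not stand for 5 separate observations.

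The profiles most like those of the risen sensors were found by the root-mean-square distance over the 6 arrays, after each gene was centred on its mean. For RIGI they were NLRC5, a regulator of MHC class I genes (0.066 log2 units away), and BTN3A3, a butyrophilin (0.084). For IFIH1 the nearest was EIF2AK2, the RNA-activated kinase PKR (0.020), and then ZNF112, a zinc finger gene (0.068). IFI16 lay nearest to OAS1 (0.073) and IFI44 (0.075), both known as interferon-stimulated genes. TLR3 lay nearest to BST2, the virus-tethering protein tetherin (0.037), and DNAL4, a dynein light chain (0.057). DHX58 lay nearest to the cytokine gene TNFSF13 (0.047) and the netrin receptor gene UNC5B (0.072). STING1 lay nearest to P2RX4, an ATP-gated channel (0.024), and SCAND3 (0.038), and MAVS to the lysosomal peptidase gene TPP1 (0.011) and the autophagy gene RB1CC1 (0.018). With 6 arrays in 2 groups, genes whose groups differ by a like amount lie near each other by this measure.

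The partners of the sensors were taken as 8 lists with 88 genes, of which 82 were measured. These lists, too, were chosen with earlier results of these data known. In all, 23 rose, 2 fell and 57 did not pass, with a median log2 difference of 0.020. The changed partners were 30.5% of those measured, against 13.5% of all genes (7.36% higher and 6.12% lower). The other sensors (7.14%) and the adaptors and kinases (0%) lay below the share of all genes, and no list was tested against it. The other genes of the lists were not analysed here. The measured genes that respond to RNA as effectors all rose, and 0 of 11 measured adaptors and kinases passed in limma (2 had an unadjusted p below 0.05).

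Of the 9 measured RNA-activated effectors all 9 rose, with a median of 1.06. IFIT1, which holds RNA without a host-type cap, had 1.03, 1.56 and 1.49 in the cocoa arrays, against −1.03, −1.21 and −1.23 in the control arrays (log2 difference 2.52, SE 0.13). OAS2 (2.05, SE 0.12) and OAS1 (1.66, SE 0.090) encode enzymes that make oligoadenylates when they bind RNA with paired strands. IFIT3, a partner of IFIT1, rose by 1.65 (SE 0.11). The limma adjusted p of IFIT1, OAS2, OAS1 and IFIT3 was at most 4.12e-05. The smallest increases in the list were those of OASL (0.59) and IFIT2 (0.62). In limma the adjusted p of IFIT2 was 0.0689 without control array 2 (0.0133 to 0.0689 over the fits without 1 array). It was 0.0548 with the 18S covariate.

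Among 11 measured adaptors and kinases 0 passed in limma, 2 had an unadjusted p below 0.05, and the median was −0.061. The list spanned log2 differences of −0.21 for IKBKB, a kinase of the NF-kappaB pathway, to 0.19 for the ubiquitin ligase TRAF6. TBK1, the kinase on which the MAVS, STING and TLR3 arms meet, had 0.019, −0.080 and −0.019 in the cocoa arrays, against 0.10, 0.020 and −0.020 in the control arrays (log2 difference −0.061, SE 0.066, adjusted p = 0.631 in limma). Its relative IKBKE had a difference of −0.036 (SE 0.068) and TICAM1, the adaptor of TLR3, one of 0.11 (SE 0.088).

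Of 5 transcription factors 1 rose and 1 fell. IRF7, which drives interferon alpha genes, had 0.28, 0.60 and 0.61 in the cocoa arrays, against −0.28, −0.45 and −0.57 in the control arrays (log2 difference 0.92, SE 0.11, adjusted p = 0.000903 in limma). Without _s_at and _x_at probe sets IRF7 was not measured. NFKB1, the p105 and p50 subunit of NF-kappaB, fell to −0.39, −0.33 and −0.22 in the cocoa arrays, against 0.30, 0.31 and 0.22 in the control arrays (−0.59, SE 0.069, adjusted p = 0.000929). IRF3, the factor that TBK1 phosphorylates first, had a difference of −0.19 (SE 0.090, adjusted p = 0.226).

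Among 9 regulators of the RNA sensors 3 rose and 6 did not pass, with a median of 0.0057. RNF135, the ubiquitin ligase Riplet that activates RIG-I, had 0.30, 0.46 and 0.22 in the cocoa arrays, against −0.22, −0.33 and −0.43 in the control arrays (log2 difference 0.65, SE 0.083, adjusted p = 0.00139 in limma). NLRX1, a mitochondrial NLR protein, rose by 0.32 (adjusted p = 0.0361), a call that held in 2 of the 6 leave-one-array-out fits (adjusted p up to 0.137, without control array 2) and lost with the replicate block (0.0819), the 18S covariate (0.152), the 5′ minus 3′ covariate (0.163) and cocoa array 1 alone (0.253). TRIM25, another ligase of RIG-I, rose by 0.24 (adjusted p = 0.0361 in limma). Its call held in 1 of the 6 leave-one-array-out fits (up to 0.113, without control array 3). It was lost with the block (0.0802), the 18S covariate (0.0773) and the 5′ minus 3′ covariate (0.0514). With cocoa array 1 alone the difference was 0.28. Removal of _s_at and _x_at probe sets took none from TRIM25 and left its difference at 0.24, while its adjusted p over the remaining genes was 0.0536. Of 14 other proposed sensors 1 rose and 13 did not pass, with a median of −0.058. DDX60, a helicase linked to RIG-I signalling, rose by 2.29 (SE 0.13, adjusted p = 2.27e-05 in limma) from 1 _s_at probe set. The endosomal receptors TLR7, TLR8 and TLR9 had differences of 0.0042, 0.0064 and −0.090.

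Of 11 genes that remove or edit nucleic acids 3 rose and 8 did not pass, with a median of −0.044. SAMHD1, which breaks down deoxynucleotides, had 0.31, 0.41 and 0.56 in the cocoa arrays, against −0.17, −0.32 and −0.33 in the control arrays (log2 difference 0.70, SE 0.083). ADAR, the enzyme that edits adenosine in paired RNA, rose by 0.53 (SE 0.071). DNASE2, the lysosomal DNase, rose by 0.47 (SE 0.071), and both ADAR and DNASE2 were read by _s_at or _x_at probe sets alone. The adjusted p of these genes in limma was between 0.000953 and 0.00298, and that of DNASE2 was 0.0681 with cocoa array 1 alone.

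The genes downstream of AIM2 and ZBP1 did not move as one. Of 12 inflammasome and cell death genes 3 rose, 1 fell and 8 did not pass, with a median of 0.10. CASP1, the protease of inflammasomes, had 0.69, 1.08 and 0.89 in the cocoa arrays, against −0.70, −1.05 and −1.11 in the control arrays (log2 difference 1.84, SE 0.13, adjusted p = 4.97e-05 in limma). Its sequence is closely shared by CARD16 and CARD17, so part of the signal cannot be assigned with certainty. Without _s_at and _x_at probe sets the difference of CASP1 was 1.695 (adjusted p = 0.000166 in limma). Whether the remaining probes also match CARD16 or CARD17 was not tested. PYCARD, the adaptor ASC between AIM2 and caspase-1, rose by 0.55 (SE 0.085, adjusted p = 0.00346, and 0.0509 with cocoa array 1 alone). PYCARD was not measured without _s_at and _x_at probe sets. RIPK3, the kinase that ZBP1 recruits for necroptosis, rose by 0.64 (SE 0.085, adjusted p = 0.00169). MLKL, the membrane-breaking target of RIPK3, had −0.086, −0.34 and −0.30 in the cocoa arrays, against 0.15, 0.14 and 0.086 in the control arrays and fell by 0.36 (adjusted p = 0.016). It still passed in 2 of the 6 leave-one-array-out fits of limma (adjusted p up to 0.0674, without control array 2). The difference was −0.27 with the 18S covariate (adjusted p = 0.111) and −0.21 with cocoa array 1 alone (0.204), and the adjusted p was 0.0834 with the 5′ minus 3′ covariate. GSDMD, the pore protein cut by caspase-1, had a difference of 0.11 (adjusted p = 0.363).

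Of 11 secreted products of these pathways 3 rose and 8 did not pass, with a median of 0.034. CXCL11 and CXCL10, chemokines that attract T cells, rose by 0.94 (SE 0.14, adjusted p = 0.00244 in limma) and 0.67 (SE 0.12, adjusted p = 0.00729). IFNL2, an interferon lambda gene nearly identical to IFNL3, had 0.036, 0.30 and 0.29 in the cocoa arrays, against −0.12, −0.036 and −0.34 in the control arrays. Its log2 difference was 0.37 (adjusted p = 0.0403 in limma). The call held in 1 of the 6 leave-one-array-out fits (adjusted p up to 0.122, without control array 3). It was lost with the replicate block (0.0661), the 18S covariate (0.237) and the 5′ minus 3′ covariate (0.181). With cocoa array 1 alone the difference was 0.20. Removal of _s_at and _x_at probe sets took none from IFNL2 and left its difference at 0.37, while its adjusted p over the remaining genes was 0.0511. IFNB1, the interferon beta gene, had −0.22, 0.038 and −0.038 in the cocoa arrays, against −0.25, 0.22 and 0.23 in the control arrays, a difference of −0.14 (adjusted p = 0.558) with overlapping groups. IFNL1 had a difference of 0.034 (adjusted p = 0.833).

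**Figure D3:**
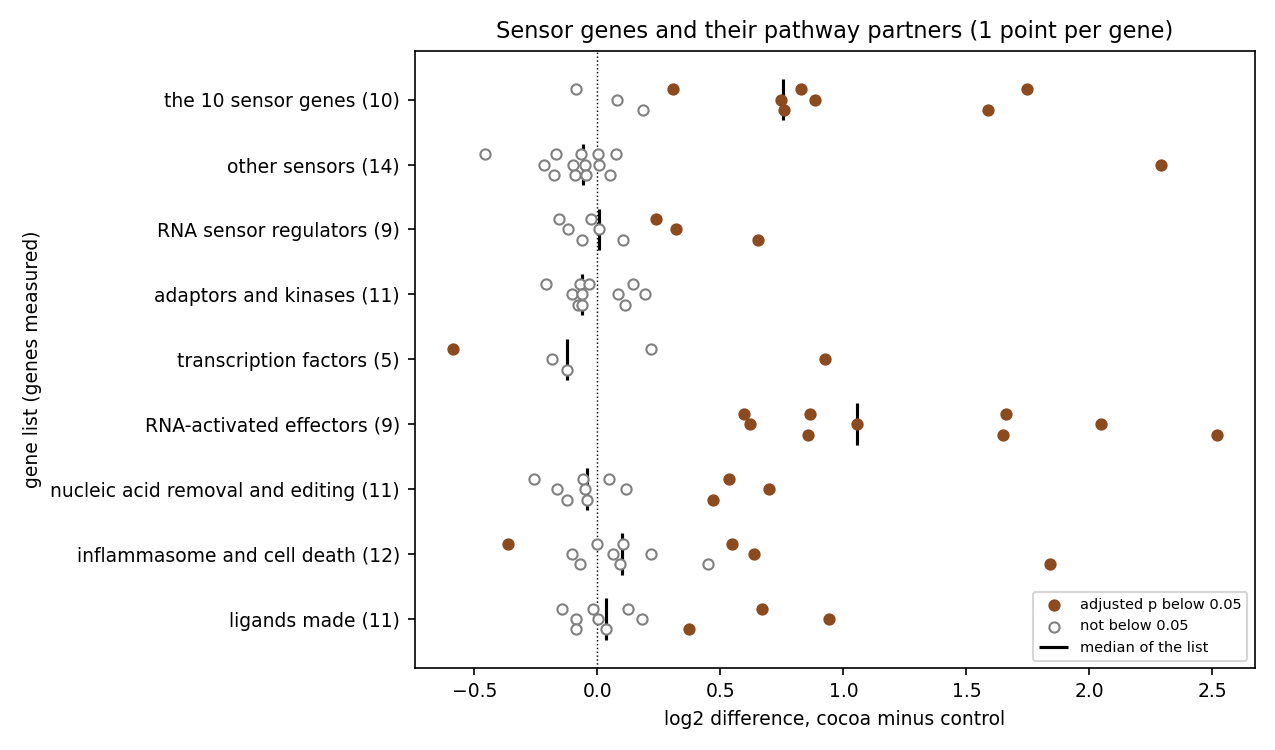
Log2 difference, cocoa minus control (horizontal axis), of the 10 sensor genes and of each measured partner, 1 point per gene and 1 line per list, with the list median as a bar and filled points for an adjusted p below 0.05. The 9 RNA-activated effectors are all filled and positive, while the 11 adaptors and kinases are all open and between −0.21 and 0.19.

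The sensor calls held when single arrays were removed. All 7 were kept in each of the 6 fits without 1 array, with log2 differences of 1.55 to 1.65 for RIGI and 1.69 to 1.80 for IFI16. The highest adjusted p in these fits was 0.0484, for MAVS without control array 2. With the 18S signal as a covariate 6 stayed past the threshold, and with the 5′ minus 3′ signal 7. With cocoa array 1 alone against the controls RIGI had a difference of 1.47 and IFI16 one of 1.70. In the same fit the differences of IFIH1, TLR3 and STING1 were 0.94, 0.75 and 0.82, and those of DHX58 and MAVS 0.59 and 0.29. That fit holds 1 cocoa array, so the spread between cocoa cultures does not enter it.

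**Figure D4:**
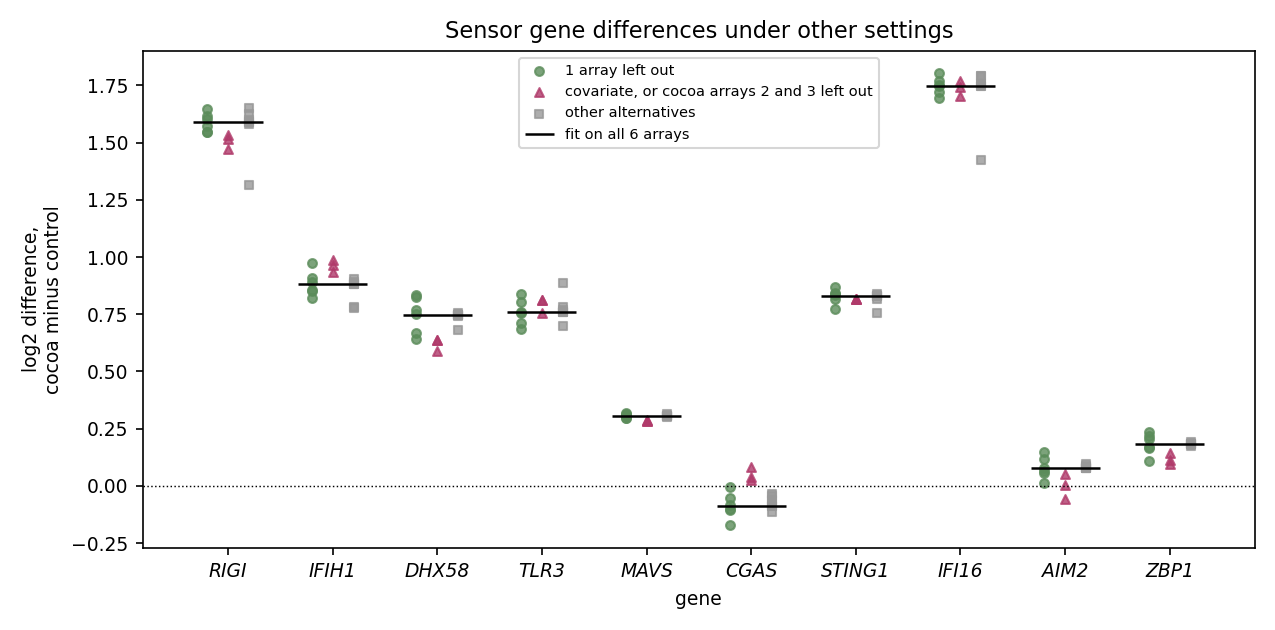
Log2 difference, cocoa minus control (vertical axis), of each sensor gene in the fit on all 6 arrays (line) and in the alternatives (points, by kind). The points of the 7 genes that rose stay above 0 in all alternatives, and those of CGAS and AIM2 lie on both sides of 0.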

How the data were processed

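Total RNA of 6 HT29 cultures was purified on spin columns, biotin-labelled and read on Affymetrix U133 Plus 2.0 arrays, per the labels' protocols. RMA gave the deposited log2 values, per the submitters' processing notes. The series text also names GeneSpring GX, with no version or filter. In the table the 6 values of a probe set have a median of 0 (the largest departure was 5.0e-07), so signal over background is unknown, and that its base is log2 follows from RMA. The number of arrays limits the precision.

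Of 54613 probe sets without Affymetrix controls, 41091 carried 1 gene symbol, 1801 several and 11721 none; 41037 matched the RefSeq gene table by identifier. Genes were summarised as the mean over their probe sets. Cocoa minus control was fitted with limma 3.58.1 (lmFit, eBayes) in R 4.3.3 over all genes and over all probe sets, with Benjamini-Hochberg adjustment. The fits were run on simulated data with independent noise for each array. Those data held no 18S or 5′ minus 3′ signal, so the run checks the code and not the effect of such signals. Genes outside the sensors were named by rule: up to 4 changed genes of each list by size, and the 2 nearest profiles of each changed sensor. TBK1, IKBKE, TICAM1, IRF3, IKBKB, TRAF6, GSDMD, IFNB1, IFNL1, OASL, IFIT2, PYHIN1, MNDA, PTPRC, TLR7, TLR8 and TLR9 were added after their values were seen. The sensors and lists were chosen with earlier results of these data known. Alternatives were a replicate block, a robust prior, array weights, quantile normalisation, median centring, removal of _s_at and _x_at probe sets, the median of probe sets, 18S and 5′ minus 3′ covariates, a fold threshold and leaving out arrays. Same-numbered arrays did not deviate together (correlations −0.12 to −0.0031), so the numbers were not treated as pairs. Figures were drawn with matplotlib 3.10.9 in Python 3.11.15.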

Additional observations from a re-analysis of the deposited data

Results flagged for a closer look

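The control probe sets for 18S ribosomal RNA, which belong to no comparison of genes, read 3.31 on the centred log2 scale in cocoa array 2, above the highest control array at 0.51. Their part in the sensor differences was not tested beyond the fits that take them as a covariate or leave these arrays out. Groups of 3 arrays are too small for a test of single outlying arrays.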

How the results depend on the processing

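The 7 sensor genes called, 15 sensor probe sets called and 25 partners called stayed within 1.5 times those numbers in all alternatives that were run except one: without _s_at and _x_at probe sets 9 sensor probe sets were called, since 16 of 25 were left. Without 1 array the counts were 7 to 7 genes, 13 to 16 probe sets and 20 to 27 partners. With the replicate block 7 sensor genes, 13 probe sets and 22 partners were called, and over all genes 1947 in place of 2666. MAVS was lost with the 18S covariate (log2 difference 0.29), and MAVS (0.29) and DHX58 (0.59) with cocoa array 1 alone. The sign of CGAS turned with the 18S covariate (0.026), the 5′ minus 3′ covariate (0.040) and cocoa array 1 alone (0.084), and that of AIM2 with cocoa array 1 alone (−0.059); neither was called in any of these fits, and the cause was not tested. The number of sensor probe sets departing from the others of their gene was 5, and 1 to 6 without 1 array. Of the 25 partners 20 were kept in every fit without 1 array, 20 with the 18S covariate, 21 with the 5′ minus 3′ covariate and 19 with cocoa array 1 alone. Over all genes, 1315 were called without control array 2, 845 with cocoa array 1 alone and 1103 with the 18S covariate. A filter on dim probe sets was not possible on centred values.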
